A study of Mus musculus with 10 samples.

Results

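The genes described here are the neighbours of the mouse immunoglobulin heavy chain locus (IgH) on chromosome 12. Members are the entries of the deposited count table that start within 5 Mb of the IgH constant genes, that is between positions 108254830 and 118422730 of GRCm38 (mm10), without the immunoglobulin heavy chain entries themselves and the Adam6 genes. This gave 285 of 46959 gene entries, and 217 IgH and Adam6 entries inside the same window were left out. Distances were measured from the nearer edge of the constant genes, which run from Igha (113254830) to Ighm (113422730). The Igha side is the side of the 3′ regulatory region, and the other side holds the D, J and V segments, whose last entry ended at 116010093, 2.59 Mb beyond Ighm. The next member, Zfp386, began 37.6 kb past that last segment.

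IgH is transcribed in B cells under the intronic enhancer Eµ between the J segments and Ighm and the 3′ regulatory region downstream of Igha. Enhancers can act over long distances, so genes beside a locus are often read to see how far its regulation reaches. Among these neighbours are Crip1 and Tmem121 next to the 3′ regulatory region, the signalling genes Akt1 and Traf3, and the transcription factor gene Yy1, whose protein takes part in IgH locus contraction. The window also takes in the imprinted Dlk1-Dio3 region, which carries a large cluster of microRNA and small nucleolar RNA genes.

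RNA was sequenced from 10 libraries in 5 groups of 2, each of pooled RNA from mice 8 to 10 weeks old. The femoral B cells, uncultured and of C57BL6 background, were from mice labelled 2KO (replicates 1 and 3), deltaEmu (5 and 7) and RAG2_deficient (1 and 2). The labels do not spell out 2KO, the design text speaks of animals lacking the 5′ Eµ and 3′ regulatory region enhancers, deltaEmu is named for Eµ, and Rag2-deficient mice cannot recombine IgH. No unmodified femoral group was analysed, so each femoral comparison is between mutants. The splenic B cells came from 129 mice labelled wt (wild type) in the sample names. They had been cultured 48 h with lipopolysaccharide (LPS, 5 µg/ml) and interleukin 4 (IL4, 20 ng/ml). The cultures were without (LPS_IL4) or with (LPS_IL4_SAHA) SAHA, an inhibitor of histone deacetylases, each as pools 4_et_7 and 6_et_8. SAHA is given as 200 ng/ml in the protocol and as 200 nM in the sample names.

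Total counts were 17710154 to 25544275 per library, so that 3 counts correspond to 0.121 to 0.178 CPM. CPM is the usual depth-scaled unit of RNA-seq counts, here with library sizes adjusted by TMM factors. Count columns were read by the sequencing index in each sample's description. For 8 of the 10 columns the titles point to another sample, and they also put SAHA on the opposite spleen samples. If the title numbering is right, none of the comparisons below holds. That numbering would put 2KO and deltaEmu on the columns read here as spleen. It would put the spleen groups on those read here as 2KO and deltaEmu. Under the index, the IgH readouts were Ighm at 4.33 and 5.92 CPM in 2KO, 472 and 555 CPM in deltaEmu, and 487 and 522 CPM in RAG2_deficient. Rag1, a recombinase gene of B cell precursors, was at 141 to 258 CPM in 2KO and deltaEmu. In the spleen it stayed at or below 0.0418 CPM. The B cell genes Cd79a and Pax5 were detected in every library, but markers of other cell types were present in the femoral ones too. Summed over 10 neutrophil markers, levels were 9059 to 10980 CPM in 2KO, 18150 to 20710 CPM in deltaEmu and 6917 to 7712 CPM in RAG2_deficient, against at most 0.501 CPM in the spleen. The Y-linked gene Ddx3y was at 44.0 to 69.2 CPM in 2KO and deltaEmu and at most 0.237 CPM in RAG2_deficient. In this bulk RNA, fewer cells of a type and less RNA per cell cannot be told apart. Replicate pairs differed most in LPS_IL4, where pool 6_et_8 departed from 4_et_7 with an SD of 0.612 on the log2 scale over all genes, and in RAG2_deficient (0.572), against 0.332 to 0.337 in the other groups.

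Of the 285 members, 135 had no count in any library and 150 had at least 1. The densest interval, 3 to 4 Mb on the Igha side, held 104 members, 59 of them microRNA genes, and none of these 104 reached 1 CPM as the mean of any group. A filter on low counts left 77 members to test in the femoral fit, 67 in the spleen fit and 82 in the fit of all libraries. Members tested in this way have been chosen in part for their level, and the counts below speak only of them.

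The sequences shown are the start-site regions of Gm30948 and Gm5441, which differed most between the femoral groups, and of Tmem121, the nearest tested protein-coding gene to the constant genes, which did not. Each runs from 250 bases before to 50 bases after the start site, in RefSeq on GRCm38.p6, which held such regions for 79 member symbols. Gm30948 is read on the plus strand at chr12:115262401-115262700, Gm5441 on the minus strand at chr12:117336963-117337262 and Tmem121 on the plus strand at chr12:113185653-113185952. Capitals mark every match to the motifs searched.
Gm30948: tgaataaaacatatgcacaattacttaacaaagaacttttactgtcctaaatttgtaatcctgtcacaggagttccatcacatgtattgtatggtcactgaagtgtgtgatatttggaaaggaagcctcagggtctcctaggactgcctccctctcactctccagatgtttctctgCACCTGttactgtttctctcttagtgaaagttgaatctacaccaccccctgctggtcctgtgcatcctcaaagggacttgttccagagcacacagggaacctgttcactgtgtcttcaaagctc
Gm5441: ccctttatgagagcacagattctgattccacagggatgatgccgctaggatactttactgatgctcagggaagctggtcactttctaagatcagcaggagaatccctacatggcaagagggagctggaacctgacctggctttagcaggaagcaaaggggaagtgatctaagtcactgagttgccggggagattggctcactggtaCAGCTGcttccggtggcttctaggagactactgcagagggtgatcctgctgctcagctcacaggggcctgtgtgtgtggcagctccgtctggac
Tmem121: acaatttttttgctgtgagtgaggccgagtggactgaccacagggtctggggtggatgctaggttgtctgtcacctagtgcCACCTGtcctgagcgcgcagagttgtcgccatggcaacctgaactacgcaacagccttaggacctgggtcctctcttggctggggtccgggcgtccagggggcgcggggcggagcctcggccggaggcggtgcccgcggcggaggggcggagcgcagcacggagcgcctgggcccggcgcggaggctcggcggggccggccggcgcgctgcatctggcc
Both strands were searched for the octamer ATGCAAAT, the E-boxes CAGCTG and CAGGTG, the Ikaros motif TGGGAA and the YY1 motif GCCATNTT, all known from B cell gene regulation. The only matches were the letters CAGGTG, read on the other strand, in Gm30948 and Tmem121, and CAGCTG in Gm5441. These E-box letters are common. Of 32851 start-site regions of this length, 20.2% held CAGGTG and 16.3% held CAGCTG, and among the 101 regions of members the shares were 18.8% and 13.9%. Gm30948 and Tmem121 thus held the same letters of this set.

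The first question is whether the genes closest to the enhancers differed between the femoral groups. On the Igha side, none of the 14 tested members of the block from Tmem121 to Pld4 was called in any of the 3 femoral comparisons at an adjusted p of 0.05 (edgeR's quasi-likelihood test, adjusted over all genes). Over all genes 3.7%, 4.31% and 9.81% were called in these comparisons, so a count of 0 of 14 is near the background. The block's median log2 fold change was -0.01 for 2KO against deltaEmu, 0.02 for 2KO against RAG2_deficient and -0.05 for deltaEmu against RAG2_deficient, where the medians of all genes were -0.01, -0.00 and -0.01.

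Tmem121, a transmembrane protein gene 65.3 kb from Igha (chr12:113185930-113189523), lay at 1.00 and 0.713 CPM in 2KO, 0.739 and 1.03 CPM in deltaEmu, and 0.711 and 1.02 CPM in RAG2_deficient. The 3 femoral groups overlapped fully. Its log2 fold change was -0.03 ± 0.45 (SE) for 2KO against deltaEmu and -0.06 ± 0.45 for 2KO against RAG2_deficient. At counts this low the error is wide, so that small changes were not detectable.

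Crip1, which encodes a small LIM-domain zinc-binding protein and lies 101 kb from Igha, was among the most abundant neighbours per transcript length. Its mean femoral level of 173 CPM per kb came after those of 2010107E04Rik, the gene of a small mitochondrial protein, at 359 CPM per kb and of Hsp90aa1 at 183 CPM per kb. In CPM, Crip1 measured 363 and 258 CPM in 2KO and 298 and 444 CPM in deltaEmu. The RAG2_deficient libraries stood at 730 and 266 CPM, so that the spread within this group covered the values of the others except the lower 2KO value of 258 CPM. The log2 fold change was -0.25 ± 0.45 for 2KO against deltaEmu (adjusted p = 0.865) and -0.70 ± 0.45 for 2KO against RAG2_deficient (adjusted p = 0.466).

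Its relative Crip2, 109.3 kb away, lay at 9.0 and 12.1 CPM in 2KO, above both deltaEmu libraries at 5.42 and 5.88 CPM. The RAG2_deficient values of 10.1 and 3.73 CPM lay on both sides of deltaEmu. The difference between 2KO and deltaEmu was 0.91 ± 0.42 on the log2 scale and did not pass the test (adjusted p = 0.353). It was called when either RAG2_deficient library was left out of the fit (log2 0.91 each time, adjusted p = 0.0346 without replicate 1 and 0.0304 without replicate 2), where 9.0% and 9.21% of all genes were called. Against RAG2_deficient, Crip2 was called higher in 2KO only without RAG2_deficient replicate 1 (log2 1.47, adjusted p = 0.0146), where 18.4% of all genes were called.

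Jag2, a Notch ligand gene 325.3 kb away, was also higher in both 2KO libraries than in deltaEmu, with 3.90 and 2.72 CPM against 1.63 and 1.60 CPM (log2 1.05 ± 0.33, adjusted p = 0.164). The RAG2_deficient libraries, at 3.62 and 3.15 CPM, lay within the 2KO range and above deltaEmu (log2 -1.11 ± 0.33 for deltaEmu against RAG2_deficient, adjusted p = 0.0802).

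Other genes of this block had narrower ranges. Mta1, a subunit of the NuRD chromatin remodelling complex, measured 44.9 and 47.8 CPM in 2KO, 38.3 and 33.8 CPM in deltaEmu, and 36.6 and 37.0 CPM in RAG2_deficient. Pacs2, a membrane sorting gene, lay between 55.1 and 85.0 CPM over the 6 femoral libraries, and Brf1, a component of the RNA polymerase III initiation factor, between 43.9 and 57.1 CPM. Pld4, an exonuclease of endolysosomes, was at 235 and 208 CPM in deltaEmu and at 156 and 109 CPM in RAG2_deficient, a log2 difference of 0.70 ± 0.21 that missed the threshold (adjusted p = 0.085). Without RAG2_deficient replicate 1, the log2 difference of Pld4 from the remaining library was 0.98 for deltaEmu and 0.58 for 2KO.

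**Figure D1:**
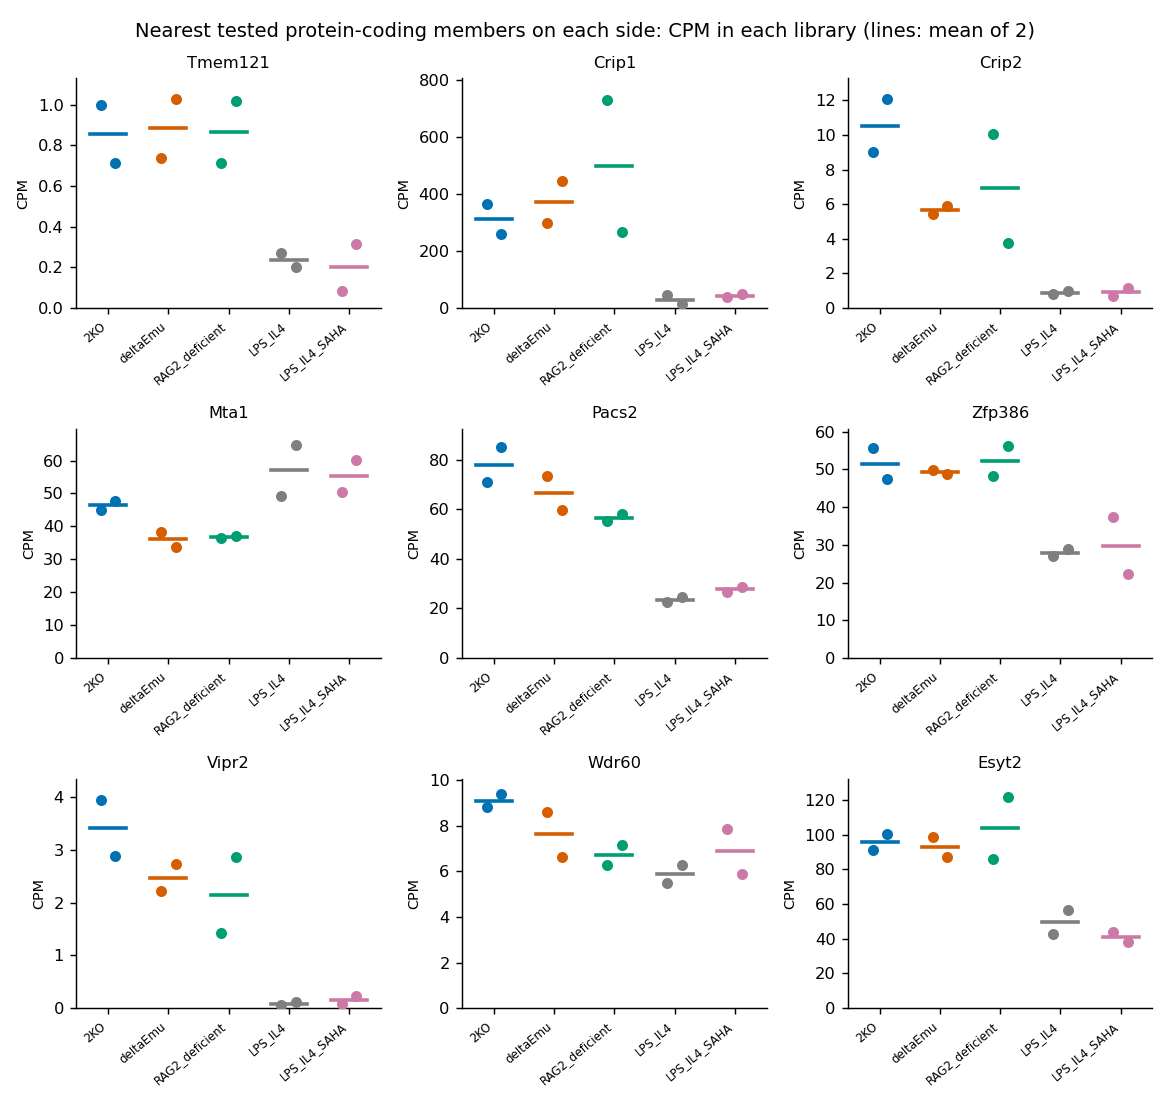
CPM in each library (points) and the mean of 2 (lines) for the nearest tested protein-coding genes on the Igha side (Tmem121, Crip1, Crip2, Mta1, Pacs2) and beyond the V segments (Zfp386, Vipr2, Wdr60, Esyt2), by group. The femoral groups overlap or lie close in most panels, the RAG2_deficient pair of Crip1 spans 266 to 730 CPM, and the spleen groups are lower in every panel but those of Mta1 and Wdr60.

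Beyond the V segments, the nearest genes were also close between femoral groups. Zfp386, a zinc finger gene, lay between 47.3 and 56.2 CPM over all 6 libraries. Esyt2, which tethers the endoplasmic reticulum to the plasma membrane, lay between 85.8 and 122 CPM, and Wdr60, a part of the ciliary dynein, between 6.28 and 9.40 CPM. Ncapg2, a condensin II subunit 2982.7 kb away, was at 186 and 222 CPM in 2KO and at 158 and 133 CPM in deltaEmu (log2 0.50 ± 0.21, adjusted p = 0.30). None of these genes was called in the 3 femoral comparisons, where 3.7%, 4.31% and 9.81% of all genes were.

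Over the whole window, 1 of 77 tested members was called between 2KO and deltaEmu, where 3.7% of all 16538 genes were. The groups' libraries did not overlap for 36 of the 77, against 57.1% of all genes. The members' median log2 fold change was 0.05, against -0.01 over all genes.

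The called gene was Ckb, the brain-type creatine kinase gene, 1582.5 kb from Igha at chr12:111669355-111672338. It measured 8.48 and 7.26 CPM in 2KO, 29.7 and 23.8 CPM in deltaEmu, and 17.7 and 11.6 CPM in RAG2_deficient. Both 2KO libraries lay below all other femoral libraries and both deltaEmu libraries above them. The difference of 2KO from deltaEmu was -1.75 ± 0.25 on the log2 scale (edgeR adjusted p = 0.00943). It lost the threshold when 2KO replicate 3 or either deltaEmu replicate was left out, with log2 values of -1.64, -1.60 and -1.89. Markers of other cell types also differed between these groups, in both directions, and their part in the result was not tested. The summed level of 10 erythroid markers was 10590 to 15710 CPM in 2KO against 2524 to 2654 CPM in deltaEmu, and all 10 were called higher in 2KO. The summed neutrophil level was lower in 2KO than in deltaEmu, as given above, as were 8 plasma cell markers, at 168 to 199 CPM against 704 to 839 CPM.

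Between 2KO and RAG2_deficient, 4 of 77 tested members were called, all lower in 2KO, where 4.31% of all genes were called and 3.05% were called lower. Between deltaEmu and RAG2_deficient, 5 of 77 were called, all lower in deltaEmu, where 9.81% of all genes were called and 5.39% were called lower. The groups' libraries did not overlap for 40 and 34 of the 77, against 47.3% and 52.8% of all genes. Both comparisons use the same RAG2_deficient libraries, so they are not independent. Gm19331 and Gm5441 passed the filter on low counts only through RAG2_deficient, which fixed their direction. Without them, 2 and 3 of 75 members were called. The members with the largest differences were 3 noncoding RNAs, all on the V side of the constant genes.

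Gm30948 is a long intergenic noncoding RNA of 4 exon entries on the plus strand (chr12:115262684-115287908). It lies among the V segments, 1840 kb from the constant genes, and the segment Ighv1-57 lies between its ends. It collected 925 and 1964 counts in the RAG2_deficient libraries, 58 and 60 in those of 2KO and 40 and 63 in those of deltaEmu. In the same order, these were 54.8 and 95.2, 2.76 and 2.67, and 1.97 and 3.60 CPM. The 2KO and deltaEmu libraries overlapped each other, and both RAG2_deficient libraries stood far above them. Against RAG2_deficient, the log2 fold change was -4.82 ± 0.38 for 2KO (adjusted p = 0.001) and -4.80 ± 0.38 for deltaEmu (adjusted p = 0.000502). Between 2KO and deltaEmu it was -0.01 ± 0.39. The calls against RAG2_deficient held in every alternative run for this gene.

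The segment entries around Gm30948 differed in direction. Ighv1-57, between its ends, followed it at a far lower level, with 0.178 and 0.194 CPM in RAG2_deficient and no count in 2KO and deltaEmu. Ighv8-8, the next segment, ran the other way, with 0.0593 and 0.0969 CPM in RAG2_deficient, 2.17 and 4.23 CPM in deltaEmu, and 17.5 to 31.8 CPM in the spleen. Gm30948 in the spleen lay between 0.0803 and 0.418 CPM. Whether the counting used strand is not given in the sources used here. Gm30948 and the segments are annotated on opposite strands, and without strand their reads can be told apart only where exons do not overlap. No exon of Gm30948 overlaps another entry.

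Gm19331, another long intergenic noncoding RNA on the plus strand (chr12:115386846-115397688), lies 1964.1 kb from the constant genes and overlaps an exon of the segment Ighv1-62-1 on the other strand. It had 20 and 15 counts in RAG2_deficient, 2 and 1 in 2KO, 2 and 0 in deltaEmu and none in the spleen. The ratio of RAG2_deficient to 2KO was 13.5, with a 95% counting interval of 4.26 to 68.7, and to deltaEmu 17.6 (4.53 to 151), intervals that cover counting error only. Its calls rest on few reads and are no independent support, since it was tested only through its level in RAG2_deficient. The call against 2KO was lost when any 1 of 5 of the 6 femoral libraries was left out, all but RAG2_deficient replicate 1. The call against deltaEmu was lost without either deltaEmu replicate. Ighv1-62-1, which shares the overlap, was also highest in RAG2_deficient, at 0.83 and 0.291 CPM.

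Gm5441 is annotated as an antisense RNA on the minus strand, 3811.8 kb from Ighm and 1224.4 kb past the last V segment (chr12:117234521-117337022). It overlaps the span of Ptprn2, a receptor-type phosphatase gene on the plus strand, and the microRNA gene Mir153 lies between its ends. It had 81 and 269 counts in RAG2_deficient, 3 and 1 in 2KO, 0 and 1 in deltaEmu and none in the spleen. In CPM, the RAG2_deficient libraries stood at 4.80 and 13.04, with every other library at or below 0.143. The ratio to 2KO was 101, with a counting interval of 39.3 to 374, while the ratio to deltaEmu of 353 rests on 1 read and has an interval of 62.9 to 13979. Like Gm19331, it was tested only through its level in RAG2_deficient, and its values are given as a description. Ptprn2 itself had 7 counts in all libraries together, and Mir153 none.

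Like these 3 RNAs, markers of early B cells were highest in RAG2_deficient, but they were not alone in this. The sum of 8 B lineage markers was 1110 to 1335 CPM there, 370 to 578 CPM in 2KO and 438 to 646 CPM in deltaEmu. That of 7 NK cell markers was 127.8 to 135.5 CPM in RAG2_deficient, against at most 124 CPM in 2KO and deltaEmu. The sum of 10 mature B cell markers was lowest in RAG2_deficient, at 644 to 765 CPM. The sum of 10 pro-B cell markers was 2750 and 2904 CPM in RAG2_deficient, against 804 to 1182 CPM in 2KO and 948 to 1263 CPM in deltaEmu. None of the 10 was at 0 in a femoral library. Gm30948 itself was 28.4 times higher in RAG2_deficient than in 2KO, with a counting interval of 23.6 to 34.4. The sum of 8 stromal markers was also highest in RAG2_deficient, at 7226 to 8225 CPM, against 1220 to 1712 CPM in 2KO and 2368 to 2463 CPM in deltaEmu. The part of these cell types in the results was not tested.

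Protein-coding members differed less. Eml1, a microtubule-binding protein gene 4715.2 kb away, was at 2.43 and 2.23 CPM in RAG2_deficient, 0.238 and 0.579 CPM in 2KO, and 0.443 and 0.971 CPM in deltaEmu. Both 2KO and deltaEmu lay below RAG2_deficient in every library, and the call held only for 2KO (log2 -2.51 ± 0.55, adjusted p = 0.0472), with deltaEmu at -1.77 ± 0.52 (adjusted p = 0.0766). The difference between these 2 results, which is the comparison of 2KO with deltaEmu, was -0.74 ± 0.60 and did not pass (adjusted p = 0.628). Cep170b, a relative of a centrosomal protein gene 508.2 kb away, was at 5.76 and 7.54 CPM in deltaEmu against 15.7 and 13.9 CPM in RAG2_deficient (log2 -1.19 ± 0.25, adjusted p = 0.0255). Rapgef5, an activator of Rap GTPases 4093.7 kb away on the V side, was at 7.59 and 7.25 CPM in deltaEmu against 12.9 and 20.7 CPM in RAG2_deficient (log2 -1.23 ± 0.28, adjusted p = 0.0334). Each of these 3 calls was lost when either library of the lower group was left out. Those of Eml1 and Rapgef5 were also lost without RAG2_deficient replicate 2, and that of Eml1 without either deltaEmu library. All 3 genes were highest among the femoral groups where the summed stromal and pro-B levels given above were highest. An exon of Eml1 overlaps Gm16596 on the other strand.

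**Figure D2:**
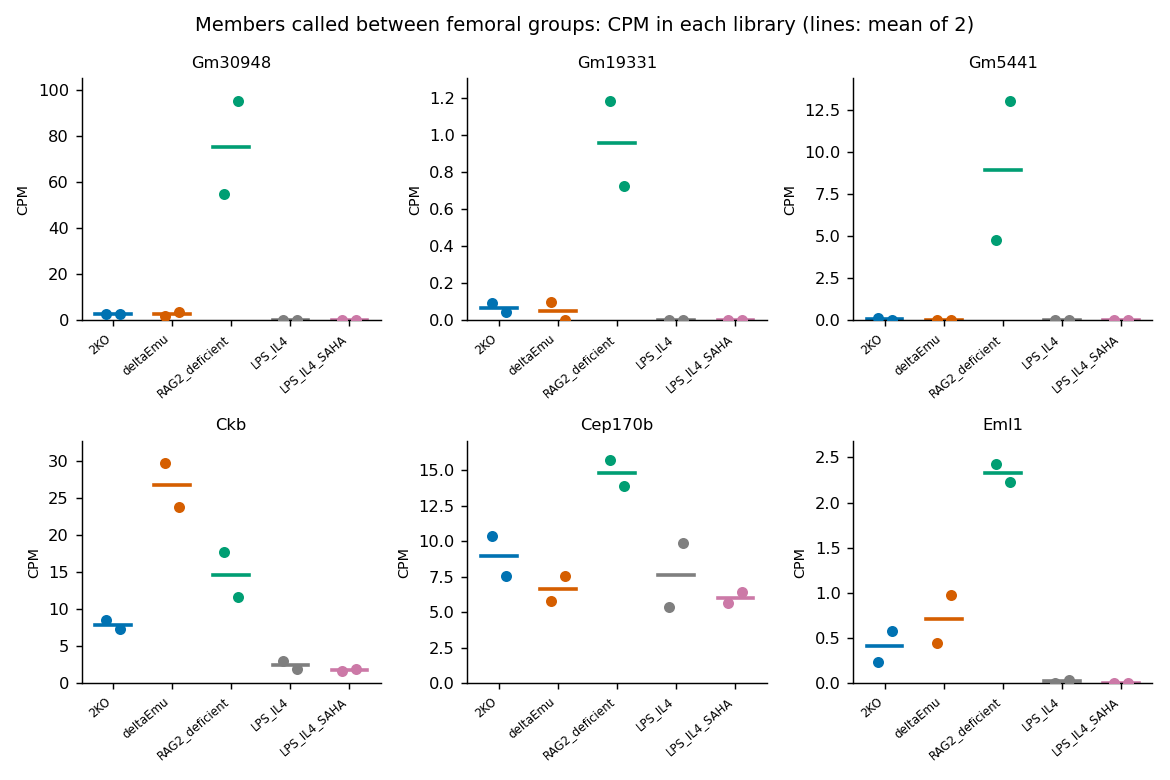
CPM in each library (points) and the mean of 2 (lines) for 6 of the members called between femoral groups. Gm30948, Gm19331 and Gm5441 are high in both RAG2_deficient libraries and near 0 elsewhere, Ckb is lowest of the femoral groups in 2KO, and Cep170b and Eml1 are highest in RAG2_deficient.

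Differences and distance were set side by side as a description. On the Igha side, Spearman's rho between distance and log2 fold change over 63 tested members was -0.14 for 2KO against deltaEmu, -0.03 for 2KO against RAG2_deficient and 0.09 for deltaEmu against RAG2_deficient. On the V side, over 14 members, rho was -0.07, -0.19 and -0.12. In the other comparisons it was -0.15 on the Igha side (56 members) and 0.48 on the V side (10 members) for SAHA, and 0.22 (65 members) and 0.14 (16 members) for spleen against femoral. For the size of the change, whatever its sign, rho on the V side was -0.50 for spleen against femoral. These values describe genes that share the same libraries. Within 0.5 Mb of Igha, 16 members were tested and none was called in any of the 3 femoral comparisons. From 2 to 3 Mb on the same side none of 13 was. With 3.7%, 4.31% and 9.81% of all genes called, these counts of 0 are near the background. The 3 tested members among the IgH segments were Gm30948, Gm19331 and the pseudogene Gm5660. Gm5660 went the other way, with 13 and 7 counts in 2KO, 11 and 3 in deltaEmu and 1 in each RAG2_deficient library, and was not called (adjusted p = 0.132 for 2KO against RAG2_deficient).

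**Figure D3:**
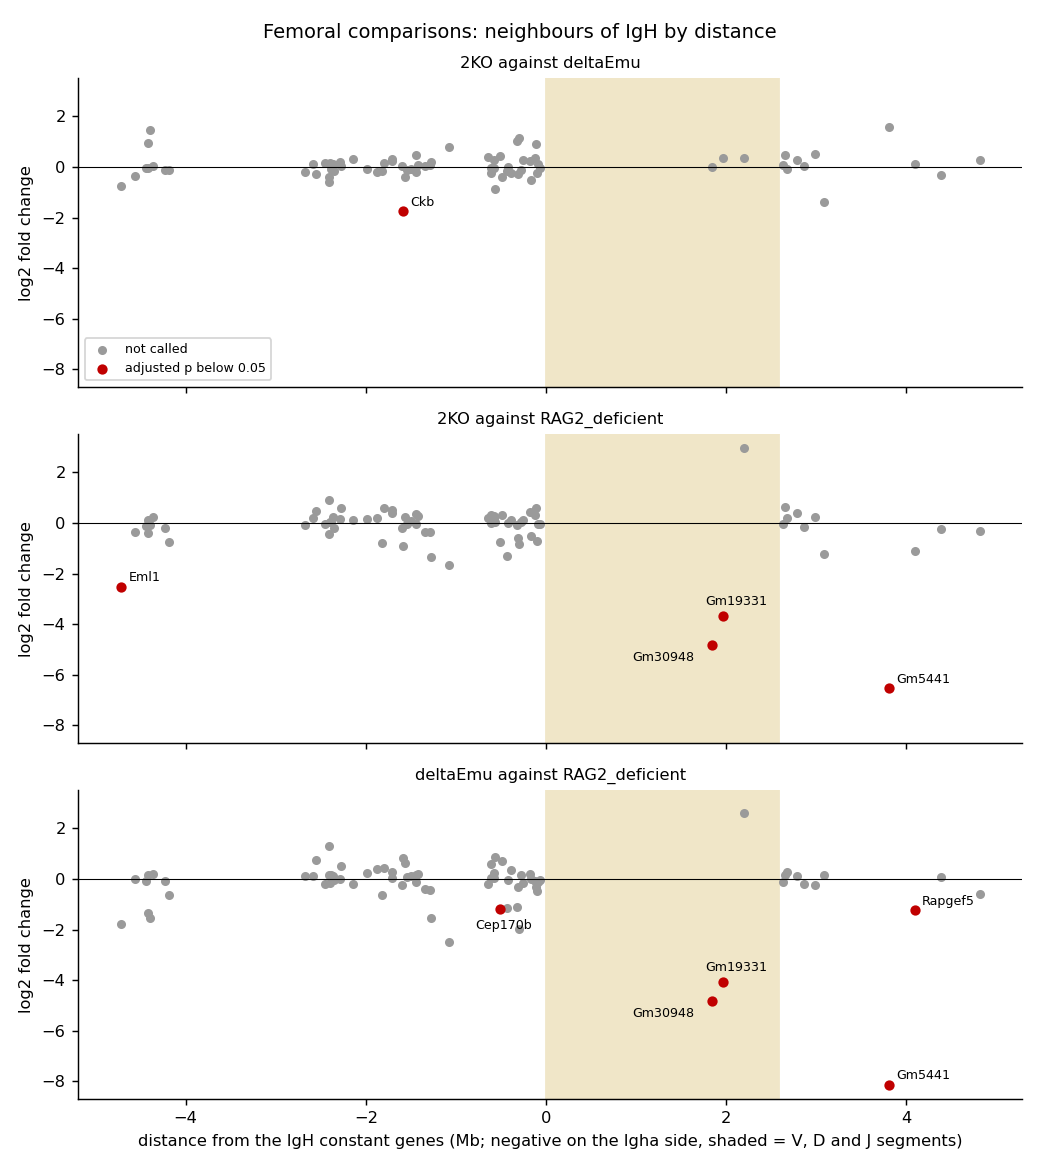
Log2 fold change of each tested member against its distance from the IgH constant genes in Mb, negative on the Igha side, for the 3 femoral comparisons. Red points passed an adjusted p of 0.05, and the shaded stretch is the 2.59 Mb of V, D and J segments. Most points lie near 0 at all distances, and the largest differences are Gm30948 and Gm19331 inside the segments and Gm5441 beyond them, both comparisons sharing the RAG2_deficient libraries.

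By role, none of the 12 neighbours of B cell signalling and survival was called in any of the 3 femoral comparisons. Akt1, the kinase downstream of phosphoinositide 3-kinase, lay between 97.6 and 139 CPM over the 6 libraries, and Traf3, a brake on noncanonical NF-kB signalling in B cells, between 35.0 and 45.3 CPM. The 9 tested genes of chromosome structure, repair and the cell cycle and the 7 of translation and protein folding likewise held no call in these comparisons. Over all genes 3.7%, 4.31% and 9.81% were called, so counts of 0 in sets this small are near the background. Yy1 lay between 85.0 and 99.8 CPM, and Xrcc3, a gene of recombination repair, between 6.57 and 10.1 CPM. Hsp90aa1, the inducible cytosolic HSP90 chaperone, was at 984 and 823 CPM in deltaEmu and at 543 and 503 CPM in RAG2_deficient (log2 0.75 ± 0.23, adjusted p = 0.0876).

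The next question is what SAHA did to these genes in the cultured splenic cells. SAHA is placed here by the sample descriptions. If the titles are right about SAHA, the sign of each difference is reversed. No member of 67 tested was called, and neither was any of the 13913 genes tested, a share of 0.0% (edgeR). DESeq2 also called none. At an unadjusted p under 0.05, edgeR had 1.34% of all genes, with 1 member among them, and DESeq2 had 1 member. The members' median log2 fold change was -0.04, against -0.03 over all genes, and the groups did not overlap for 17 of the 67, against 25.9% of all genes.

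The smallest unadjusted p among members, 0.0251, was that of Begain, a gene beside the Dlk1-Dio3 region. It lay at 1.02 and 1.65 CPM in LPS_IL4 and 0.251 and 0.586 CPM in LPS_IL4_SAHA, a log2 difference of -1.73 ± 0.57 (adjusted p = 0.939). Jag2 was next, with 1.02 and 1.29 CPM without SAHA and 0.585 and 0.586 CPM with it (log2 -1.02 ± 0.43, adjusted p = 0.939). Both genes are weakly expressed, and both had lower values with SAHA in each pool. The genes nearest to Igha gave log2 differences of 0.50 ± 0.51 for Crip1, -0.09 ± 0.23 for Mta1 and 0.20 ± 0.19 for Pacs2.

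The 2 pools did not give the same picture. Taking SAHA minus no SAHA within a pool, 9 members were higher in both pools, 13 lower in both and 45 opposite. The same count was not made over all genes, where the pool deviations of the 2 groups correlated at r = -0.44. The opposite signs are therefore not shown to be particular to the members. The median size of the difference was 0.14 on the log2 scale in pool 4_et_7 and 0.39 in pool 6_et_8, where the LPS_IL4 library stands apart. In that library Inf2, a formin that nucleates actin, measured 123 CPM, against 32.6 to 43.5 CPM in the other 3 spleen libraries. Dync1h1, the dynein heavy chain gene, measured 540 CPM against 256 to 293 CPM. Crip1 measured 14.5 CPM against 38.2 to 47.4 CPM. With LPS_IL4 of pool 4_et_7 left out, so that this library alone stood for LPS_IL4, 12 of 72 members were called, 6 in each direction, among them Crip1, Inf2 and Dync1h1. In that fit 2670 of 14862 genes, or 18%, were called, a share near that of the members. With any other spleen library left out, no member was.

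**Figure D4:**
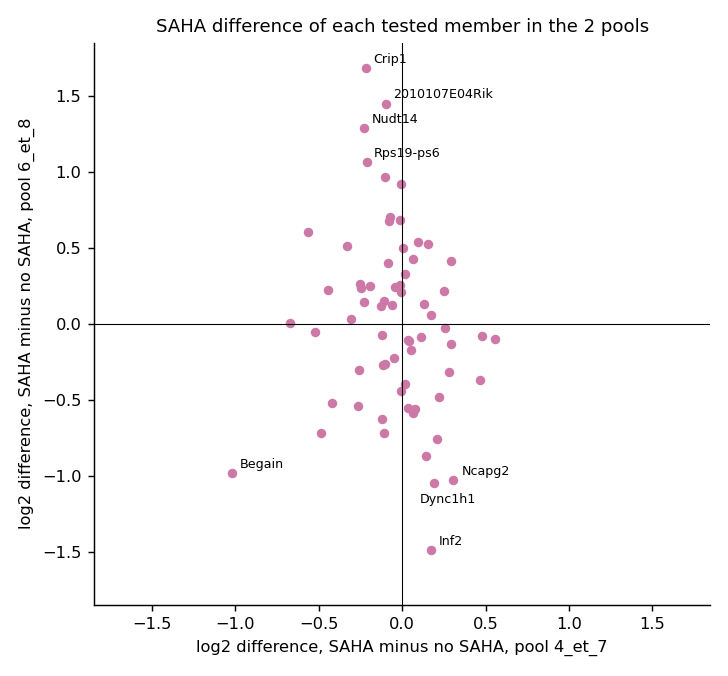
Log2 difference between SAHA and no SAHA for each of 67 tested members, in pool 4_et_7 (horizontal axis) and pool 6_et_8 (vertical axis). The points spread more along the vertical axis than the horizontal, and 45 lie in quadrants of opposite sign.

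The last comparison sets the 4 cultured splenic libraries against the 6 femoral ones. Tissue, mouse strain, culture, stimulation and genotype all differ between them and cannot be told apart. Xist, the RNA of the inactive X chromosome, also differed, at 678 to 2750 CPM in the femur and at most 0.201 CPM in the spleen. Of 82 tested members 59 were called, 22 higher and 37 lower in the spleen, against 71.4% of 17483 genes called, 30.6% higher and 40.9% lower. The filter on low counts passed 77 members in the femoral fit and 67 in the spleen fit. Members that passed through 1 tissue alone, such as Gm5441 with no spleen count, were chosen in part by their level there, which bears on their direction. The members' median log2 fold change was -0.26, near the -0.21 of all genes. The libraries did not overlap for 47 of the 82, against 55.4% of all genes.

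The block next to Igha held 7 called lower and 4 higher of 14, with a median of -0.59. Over all genes 40.9% were called lower and 30.6% higher, so these counts are near the background. Crip1 ranged from 258 to 730 CPM in the femur and from 14.5 to 47.4 CPM in the spleen (log2 -3.44 ± 0.41, adjusted p = 4.36e-05). Crip2 fell alongside it (log2 -3.03 ± 0.33), as did Tmem121 (-1.99 ± 0.40), Pld4 (-1.92 ± 0.15), Jag2 (-1.66 ± 0.23) and Pacs2 (-1.38 ± 0.12). Tmem121 passed the filter on low counts only through the femoral libraries, which fixed its direction. In the same block Gpr132, a G protein-coupled receptor gene, was higher in the spleen, with 33.0 to 41.0 CPM against 11.97 to 17.8 CPM (log2 1.31 ± 0.11, adjusted p = 4.69e-06). Cdca4, a cell cycle gene, was also higher (0.86 ± 0.15), as was Mta1 (0.51 ± 0.12). Adjacent genes could thus differ in direction, as Mta1 (117.6 kb from Igha) and Crip2 (109.3 kb) did.

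The largest difference among all members was that of Tnfaip2, a gene first found as a target of tumour necrosis factor and known from myeloid and endothelial cells. It ranged from 78.9 to 146 CPM in the femur, while no spleen library exceeded 0.861 CPM (log2 -8.15 ± 0.39, adjusted p = 8.17e-08). Gm20658, an antisense RNA beyond the V segments, had 36 to 86 counts in each femoral library and 3 counts in the 4 spleen libraries together, a ratio of 101 (counting interval 34.2 to 490). Adssl1, an adenylosuccinate synthase gene, fell from 29.7 to 53.2 CPM in the femoral libraries to 1.99 to 2.55 CPM (log2 -4.22 ± 0.15). Vipr2, a receptor for vasoactive intestinal peptide beyond the V segments, was lower by -4.41 ± 0.42 and Eml1, with 1 read in the 4 spleen libraries together, had a femoral to spleen ratio of 98.8 (counting interval 17.4 to 3934). Exoc3l4, a gene beside Tnfaip2, and Rd3l were lower by -4.55 ± 0.53 and -4.11 ± 0.63, both with few spleen counts (5 and 4 in all). Gm20658, Vipr2, Eml1, Exoc3l4 and Rd3l passed the filter on low counts only through the femoral libraries, which fixed their direction. Among the IgH segments, 6 members were tested, of which 3 were called lower and 3 higher in the spleen. The share called over all genes was 71.4%. All 6 passed the filter on low counts only through the tissue where they were higher, which fixed their direction. The lower ones were Gm30948, Gm19331 and Gm5660, the last 2 with no spleen count. The higher ones were the pseudogenes Gm9134, between Igha and Ighm, Gm7019 and Gm9260. Gm7019 had 10 to 22 counts in the spleen libraries against 0 to 5 in the femoral ones, and Gm9260 had 12 to 32 against 1 to 13. Monocyte markers were lower in the spleen. The sum of 7 monocyte markers was 3482 to 8328 CPM over the femoral libraries, against 7.19 to 15.3 CPM over the spleen ones, and its part in the result was not tested.

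Of the 7 tested genes of translation and protein folding, 4 were called higher and 2 lower in the spleen, beside 30.6% higher and 40.9% lower over all genes. Hsp90aa1 rose from 503 to 984 CPM in the femoral libraries to 1435 to 2151 CPM (log2 1.28 ± 0.17, adjusted p = 9.09e-05), Wars, the tryptophanyl-tRNA synthetase gene, rose by 1.10 ± 0.12, Trmt61a, a tRNA methyltransferase gene, by 1.63 ± 0.14 and the HSP70 cochaperone gene Bag5 by 0.61. Those called lower were Brf1 (-0.42 ± 0.11) and Dync1h1 (-0.62 ± 0.22), the latter losing the call when any 1 of 7 of the 10 libraries was left out. Among the signalling neighbours, Traf3 rose by 0.80 ± 0.11 (35.0 to 45.3 CPM against 63.3 to 86.3 CPM), while Inf2, called at 0.86 ± 0.29, was 0.34 without the LPS_IL4 library of pool 6_et_8 and lost the call without deltaEmu replicate 7 or LPS_IL4_SAHA pool 6_et_8. Cinp, a partner of cyclin-dependent kinase 2, rose by 1.50 ± 0.15.

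Several genes of this window were close between spleen and femur. Yy1 was at 83.7 to 98.6 CPM in the spleen, inside the femoral range (log2 0.00 ± 0.11, adjusted p = 0.988). Akt1 differed by 0.01 ± 0.11, Xrcc3 by -0.03 ± 0.14 and Ncapg2 by -0.00 ± 0.19. The SE limits how small a difference these values can show.

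**Figure D5:**
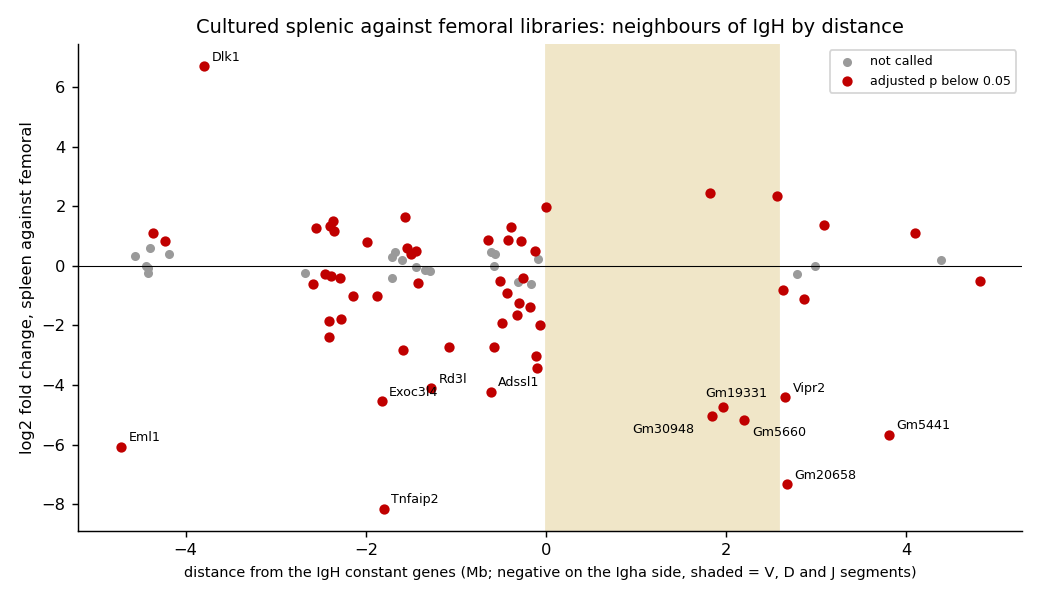
Log2 fold change of each tested member in the 4 spleen libraries against the 6 femoral ones, by distance from the IgH constant genes in Mb, negative on the Igha side. Red points passed an adjusted p of 0.05, the shaded stretch is the V, D and J segments, and the 12 called members with the largest differences are named. Calls in both directions occur in every interval with more than 1 tested member, with Tnfaip2 lowest and Dlk1 highest.

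In the imprinted region, Dlk1, a paternally expressed gene for a Notch-related membrane protein, was the only member of the 3 to 4 Mb interval to pass the filter. It did so only through the spleen libraries. It had 6 and 19 counts in LPS_IL4, 17 and 15 in LPS_IL4_SAHA, and none in the 6 femoral libraries. Set against 3 counts per femoral library, it was at least 4.04-fold higher in the spleen. The fitted log2 fold change of 6.71 depends on the tool's prior count and is no measure of size. The maternally expressed noncoding RNAs of the region had 3 counts (Meg3), 19 counts (Rian) and 1 count (Mirg) over all 10 libraries, and Rtl1 and Dio3 had none. At this depth, these genes lay at or below the level at which a difference between groups could be seen.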

How the data were processed

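Gene-level RNA-seq counts were analysed for 10 mouse libraries in 5 groups of 2. Libraries were made from 500 ng of total RNA with a stranded total RNA kit, per the labels' protocols. Per the submitters' processing notes, STAR 2.4.0a served for alignment to mm10/GRCm38 and featureCounts (Subread 1.4.6-p1) for counting. The authors deposited raw counts per gene, with coordinates and a gene length that per the file headers accompanies each entry. Strand setting, annotation release and multi-mapping rules are not stated in the sources used here, which leaves pseudogenes, antisense RNAs and overlapping members uncertain. Library sizes and tests left out 100 entries of spiked-in sequences. Gene types were taken from GENCODE vM21, in which 265 of the 285 members were matched.

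Testing used edgeR 4.0.16 under R 4.3.3: quasi-likelihood F tests after filterByExpr at a minimum count of 10, with TMM factors. P-values were adjusted by Benjamini-Hochberg over every gene of the fit, and a call means an adjusted p below 0.05. The 6 femoral libraries, the 4 spleen libraries and all 10 formed separate fits, with 3, 2 and 5 residual degrees of freedom. Every adjusted p is from this test unless another is named. Levels are CPM on the TMM scale of all 10 libraries. The labels speak of RNA pools, so p-values measure the spread between pools only. Between 2 groups of 2 libraries, an exact permutation test of a single gene could not pass 0.05. The shared pool numbers of the spleen groups were not used as a block, since their deviations correlated at r = -0.44. Counting intervals are exact at 95% and cover counting error only. The test was checked on simulated counts.

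Named genes were the called members of each comparison (the 12 largest where more were called), the nearest tested protein-coding members on each side and a fixed list of 35 neighbours. Begain, 2010107E04Rik, Trmt61a, Cinp, Bag5 and the other genes outside that rule were named after their values were seen. The members and lists were chosen with earlier results of these data known. Alternatives were DESeq2 1.42.0, RLE factors, no filter, removal of immunoglobulin, mitochondrial and ribosomal RNA genes, all 10 libraries in 1 fit, a pool block and leaving out each library.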

Additional observations from a re-analysis of the deposited data

How the results depend on the processing

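No member reversed direction with a call under any alternative. The spleen against femoral count stayed within 53 to 65 of 85 to 88 tested members when a library was left out. In those fits 63.6% to 73.6% of all genes were called. The femoral counts rest on single libraries. Shares over all genes follow in the order 2KO against deltaEmu, 2KO against RAG2_deficient and deltaEmu against RAG2_deficient. DESeq2 called 5.74%, 7.51% and 12.5% of all genes, with 77 members tested. With no filter 5.6%, 7.18% and 12% were called, with 140 members tested, and with all 10 libraries in one fit 3.4%, 2.91% and 8.11%. For 2KO against deltaEmu, the count of called members was 2 with no filter on low counts and 0 to 2 when a library was left out, being 0 without 2KO replicate 3 or either deltaEmu replicate. For 2KO against RAG2_deficient it was 2 with all 10 libraries in one fit, and 2 to 9 when a library was left out, the 9 without RAG2_deficient replicate 1. For deltaEmu against RAG2_deficient it was 8 by DESeq2 (3 higher, 5 lower), 18 with no filter (6 higher, 12 lower), and 2 to 18 when a library was left out, the 18 (7 higher, 11 lower) again without RAG2_deficient replicate 1. The cause was not tested. Without that replicate 18.4% and 30.9% of all genes were called in these 2 comparisons. For SAHA it was 0 to 12 when a library was left out, the 12 without LPS_IL4 pool 4_et_7, and 0 with the pool as a replicate block or with the pools crossed, a pairing added after the data were seen. Among single genes, 12 of 396 values for 2KO against RAG2_deficient lost the threshold and 3 gained it. For deltaEmu against RAG2_deficient 8 of 407 lost and 10 gained it, for 2KO against deltaEmu 3 of 363 lost and 3 gained it, for spleen against femoral 12 of 588 lost and 14 gained it, and for SAHA 5 of 330 gained it. Depth limits the members of a few counts, such as Gm19331 and the Dlk1-Dio3 genes.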
